A study of Homo sapiens with 15 samples.

Results

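ATF3, the FOS genes (FOS, FOSB, FOSL1, FOSL2), the JUN genes (JUN, JUNB, JUND) and their small relatives JDP2 and BATF3 encode the bZIP proteins from which the transcription factor AP-1 and related dimers are built. These 10 genes were taken by symbol from the 62700 gene rows of each of 2 count tables, and all 10 passed the filter on low counts in both. RNA was sequenced from 143B, an established human osteosarcoma cell line, with 3 libraries for each of 5 conditions. The non-OSC libraries came from adherent cultures in medium with serum, and the OSC libraries from tumor spheres in a medium supplied with B27, EGF and basic FGF. Both were unmodified cells, with WT given as their genotype. The other 9 libraries were from sphere cultures infected with lentivirus, namely shCtrl (also WT by label), shPDK1#1 and shPDK1#2, and the latter pair carried different hairpins against PDK1. Culture times are not given in the sources used here, nor whether the 3 libraries of a condition came from separate cultures, so p-values measure only the spread between these libraries. Medium, growth factors and culture format changed together between non-OSCs and OSCs, and their effects cannot be told apart.

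A bZIP protein binds DNA as a dimer, through a basic region followed by a leucine zipper. JUN proteins pair with themselves or with FOS proteins, which need a JUN partner to bind, and the dimers recognise the TPA response element (TRE) or the related cyclic AMP response element (CRE). FOS, FOSB, JUN, JUNB and ATF3 are known as genes induced rapidly by growth factors or stress, whereas FOSL1 (FRA-1) and FOSL2 (FRA-2) are FOS proteins that accumulate later and JUND is often present in unstimulated cells. ATF3, JDP2 and BATF3 can pair with JUN proteins, and JDP2 and BATF3 are known mainly as repressors. In bone, FOS genes are known for their part in the osteoblast lineage and, for FOS, in experimental osteosarcoma.

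The summed counts lay between 7992499 and 11256536 per library, and levels are given as CPM, the depth-scaled count, after TMM normalization. PDK1 was at 62.0% of the shCtrl mean with shPDK1#1 and at 43.7% with shPDK1#2. The mesenchymal markers VIM, COL1A1 and SPARC were abundant, but THY1 had at most 3 counts per library in the 4 sphere conditions and COL1A2 in OSCs. Of the 6 tested genes in this list of 8, 4 were higher and 1 lower in OSCs (edgeR, adjusted p under 0.05), against 32.4% and 31.5% of all genes. The lower gene was RUNX2, from 37.7 ± 0.945 to 17.3 ± 2.78 CPM (SD, n = 3 each). The list summed to 5428 to 5667 CPM in non-OSCs and 8322 to 8828 CPM in OSCs. Among markers of other cells, the 4 leukocyte genes summed to at most 2.77 CPM and the 3 endothelial genes to at most 1.85 CPM, with CD3E, PTPRC and CDH5 at or under 3 counts in every library. Of the 4 epithelial markers, CDH1 was likewise at or under 3 counts, while the list, led by KRT18 and KRT8, summed to 1097 to 1227 CPM in non-OSCs and 292.1 to 301.6 CPM in OSCs. The 2 pericyte markers summed to 4.24 to 5.25 CPM in non-OSCs and 20.5 to 23.7 CPM in OSCs, and the part of these shifts in the results below was not tested. A share of cells that express a gene and the amount of RNA per cell cannot be told apart in bulk RNA.

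ATF3 (ENSG00000162772.18, GRCh38 chromosome 1, 212565334 to 212620777, forward strand) is the gene that the study followed. The study picked it from these same libraries as higher in OSCs and lower with both hairpins, so its values are a description without a p-value. The values of FOSB are given in the same way, because an overlap of such lists in an earlier re-analysis of these libraries, not the study's own, had returned it. ATF3 stood at 2.41, 2.52 and 2.31 CPM in the 3 non-OSC libraries and at 50.14, 49.98 and 50.37 CPM in the 3 OSC libraries. In the separate table of hairpin libraries it was at 31.7, 31.5 and 31.9 CPM with shCtrl, at 23.6, 19.7 and 24.2 CPM with shPDK1#1 and at 9.41, 7.69 and 8.86 CPM with shPDK1#2. The 3 groups of that table did not overlap, and every shPDK1#2 library was below every shPDK1#1 library. Its log2 fold change (log2 FC) from the fit, with the standard error (SE), was 4.37 (SE 0.129) in OSCs, -0.49 (SE 0.0996) with shPDK1#1 and -1.87 (SE 0.114) with shPDK1#2. A larger rise in OSCs was seen in 32 of 14287 genes. A larger fall was seen in 421 of 14574 genes with shPDK1#1 and in 18 with shPDK1#2.

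Promoter windows from RefSeq (GRCh38.p14), from 250 bases before to 50 bases after an annotated start, were found for 8 of the 10 genes. BATF3 and FOSL1 had none. They were searched on both strands for the TRE (TGACTCA), the CRE (TGACGTCA), the CRE-like words TGACGTAA and TGACATCA, the CArG box bound by SRF, and TATAAA. The words TGACATCA, TGACGTAA and TGACGTCA occur before the start in 2.37%, 0.372% and 1.63% of the 34943 windows of the table. The 4 members printed here are those with such a word before the start, which is in capitals, and each sequence runs 5′ to 3′ on the gene's strand from 250 bases before the start to the last base outside annotated exons.
ATF3 (chr1:212565157-212565333, forward strand, upstream start): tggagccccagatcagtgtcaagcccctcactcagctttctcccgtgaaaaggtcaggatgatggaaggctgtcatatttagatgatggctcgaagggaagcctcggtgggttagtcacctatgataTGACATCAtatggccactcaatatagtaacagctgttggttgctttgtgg
JUN (chr1:58784049-58784297, reverse strand): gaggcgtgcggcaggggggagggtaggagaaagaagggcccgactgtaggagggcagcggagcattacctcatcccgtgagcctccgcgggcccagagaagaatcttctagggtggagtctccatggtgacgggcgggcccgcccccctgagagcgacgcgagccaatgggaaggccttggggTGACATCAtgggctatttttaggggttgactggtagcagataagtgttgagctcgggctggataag
FOSB (chr19:45467746-45467994, forward strand): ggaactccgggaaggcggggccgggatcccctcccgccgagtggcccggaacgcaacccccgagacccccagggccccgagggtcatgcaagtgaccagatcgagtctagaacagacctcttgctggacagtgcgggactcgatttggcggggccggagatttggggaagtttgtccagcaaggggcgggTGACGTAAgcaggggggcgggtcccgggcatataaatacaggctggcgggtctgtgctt
JUND (chr19:18281623-18281872, reverse strand): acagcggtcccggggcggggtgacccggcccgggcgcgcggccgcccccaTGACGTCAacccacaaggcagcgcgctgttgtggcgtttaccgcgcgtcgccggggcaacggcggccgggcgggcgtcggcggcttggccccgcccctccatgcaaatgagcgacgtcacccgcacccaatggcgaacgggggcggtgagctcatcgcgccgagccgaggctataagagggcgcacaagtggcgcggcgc

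The upstream window of ATF3 and the window of JUN thus hold the same 8 bases, 123 and 67 bases before the start. FOSB, FOS and JUNB hold TATAAA between 33 and 30 bases before the start, a word found at any place before the start, on either strand, in 10.8% of all windows. The TRE was found only in the window of FOSL2, 4 bases after its start, against 4.96% of all windows. The CArG box was in none of the windows of the 8 genes, against 1.3%, and bases outside these windows were not searched. These matches describe letters and not binding. ATF3 has a further annotated start, whose window holds TATAAA 230 bases before it but none of the other words searched. Gene counts do not say which start was used.

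**Figure D1:**
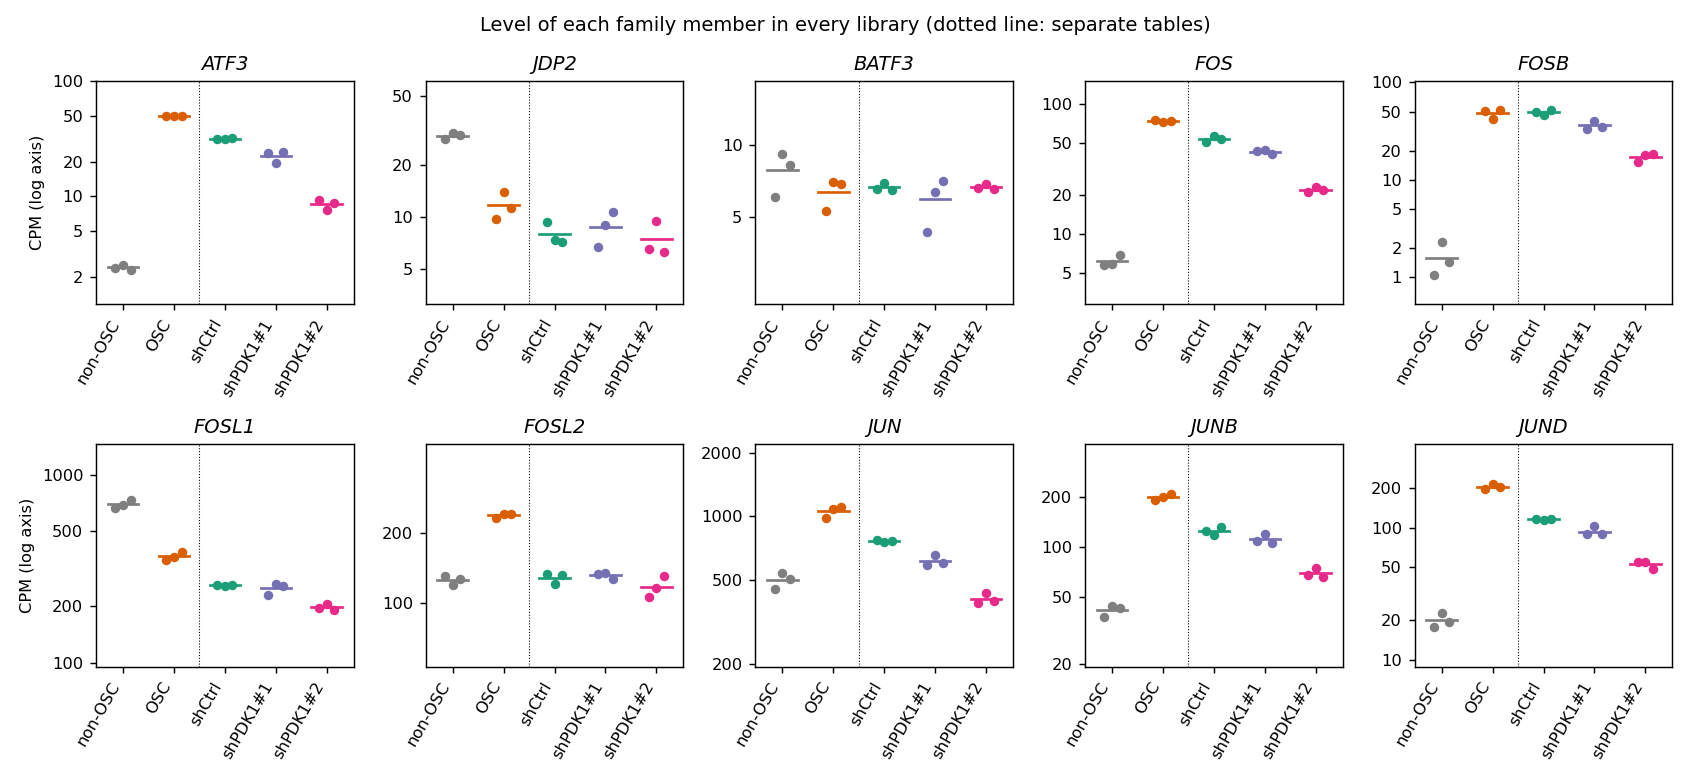
CPM of the 10 genes in each of the 15 libraries, on log axes that differ between panels. Points are libraries, short lines are means of 3, and the dotted line separates the 2 tables. ATF3, FOS, FOSB, JUN, JUNB and JUND are lower in non-OSCs than in OSCs and lower with shPDK1#2 than with shCtrl, while FOSL1 and JDP2 are higher in non-OSCs than in OSCs.

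Most of the family was higher in OSCs than in non-OSCs. Of the 10 genes, 7 rose, 2 fell and BATF3 did not pass the test (adjusted p under 0.05 in the quasi-likelihood test of edgeR), in a comparison in which 63.9% of all 14287 genes tested were called, 32.4% as higher and 31.5% as lower. Without ATF3 and FOSB, 5 of 8 genes rose and 2 fell. The sizes differed widely, from a 30.3-fold rise of FOSB to a 2.51-fold fall of JDP2. The median log2 fold change was 1.67 for the 10 genes and 0.998 for the 8 without ATF3 and FOSB, against -0.0050 over all genes tested. Libraries did not overlap for 9 of the 10 genes and for 7 of those 8, against 66.9% of all genes.

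Within the FOS subfamily, the inducible members and FRA-1 moved in opposite directions. FOS (ENSG00000170345.10, chromosome 14, 75278826 to 75282230), the classical early gene, had 5.69, 5.80 and 6.83 CPM in non-OSCs and 75.9, 73.5 and 74.9 CPM in OSCs. All OSC libraries were far above all non-OSC libraries (log2 FC 3.61, SE 0.104, adjusted p = 1.44e-17). FOSB (ENSG00000125740.15, chromosome 19, 45467995 to 45475179) had 11 to 21 counts per library in non-OSCs and 414 to 427 in OSCs, that is 1.06, 2.30 and 1.43 CPM against 51.4, 41.9 and 51.6 CPM (log2 FC 4.92, SE 0.176).

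FOSL1 (ENSG00000175592.9, chromosome 11, 65892049 to 65900573) went the other way. Its level was 662, 691 and 732 CPM in non-OSCs and 351, 365 and 389 CPM in OSCs (log2 FC -0.92, SE 0.0472, adjusted p = 2.5e-13). Adherent cells thus held nearly 2-fold more FRA-1 transcript, a ratio of 1.89. FOSL2 (ENSG00000075426.12, chromosome 2, 28392448 to 28417317) rose by about as much as FOSL1 fell, from 126.2 ± 5.79 CPM to 238.5 ± 5.56 CPM (SD, n = 3 each; log2 FC 0.92, SE 0.0521, adjusted p = 1.27e-12).

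All 3 JUN genes rose in OSCs, in the order JUND, JUNB, JUN. JUND (ENSG00000130522.6, chromosome 19, 18279694 to 18281622) had 17.7, 22.8 and 19.3 CPM in non-OSCs and 194, 215 and 203 CPM in OSCs, and was 10.3-fold higher (log2 FC 3.36, SE 0.0789, adjusted p = 5.16e-19). JUNB (ENSG00000171223.6, chromosome 19, 12791486 to 12793315) went from 38.3, 44.3 and 43.1 CPM to 192, 200 and 207 CPM (log2 FC 2.25, SE 0.0656, adjusted p = 1.75e-17). Exons of HOOK2 on the other strand cover 14.2% of the JUNB exon, and the strandedness of the libraries is not given in the sources used here. JUN (ENSG00000177606.9, chromosome 1, 58776845 to 58784048), already at 454, 537 and 504 CPM in non-OSCs, reached 981, 1076 and 1101 CPM (log2 FC 1.08, SE 0.053, adjusted p = 1.1e-13). The libraries of the 2 conditions did not overlap for any of the 3 genes.

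JDP2 and BATF3 did not follow ATF3. JDP2 (ENSG00000140044.13, chromosome 14, 75427716 to 75474111), whose product represses AP-1 sites, stood at 28.2, 30.5 and 29.9 CPM in non-OSCs and at 9.733, 13.96 and 11.23 CPM in OSCs (log2 FC -1.33, SE 0.124, adjusted p = 4.88e-09). The antisense gene JDP2-AS1 overlaps 0.415% of its exon bases. BATF3 (ENSG00000123685.9, chromosome 1, 212686417 to 212699840, reverse strand) had 6.08, 9.19 and 8.26 CPM in non-OSCs and 5.30, 6.98 and 6.89 CPM in OSCs. These values overlap, and with 43 to 84 counts per library the 95% interval of its log2 fold change ran from -0.67 to 0.10 (adjusted p = 0.22). None of the 10 genes shares a stretch of 75 bases with annotated transcripts of another gene.

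**Figure D2:**
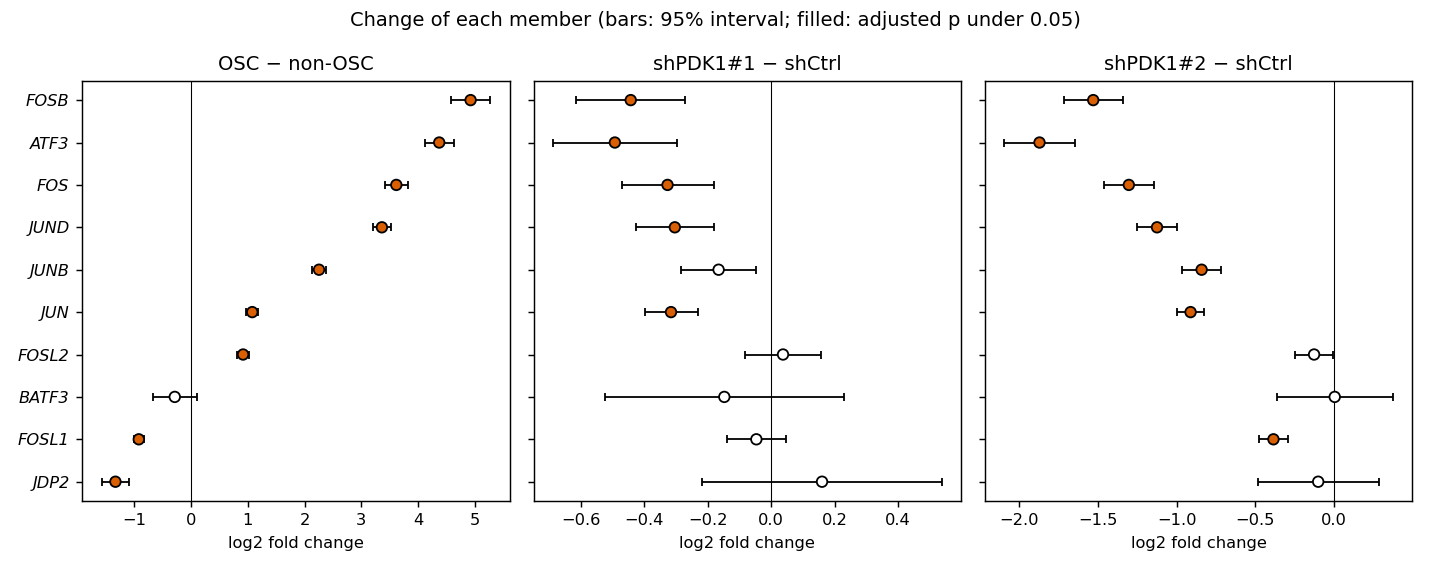
Log2 fold changes of the 10 genes (points) with 95% intervals (bars) in OSCs against non-OSCs and with each hairpin against shCtrl, on axes of different width. Filled points had an adjusted p under 0.05. The rows are ordered by the change in OSCs, from 4.92 for FOSB to -1.33 for JDP2, and with shPDK1#2 the 6 genes at the top all lie at or below -0.84.

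The make-up of the family's transcripts was compared after dividing CPM by exon length, since longer transcripts give more reads. In non-OSCs FOSL1 was the most abundant at 368.3 CPM per kb, followed by JUN at 137.6, JUNB at 22.9, FOSL2 at 17.6 and JUND at 10.3, with JDP2, BATF3, FOS, ATF3 and FOSB each under 5. With this length, no neighbours in this order overlapped between libraries. FOSL1 made up 64.9% ± 1.41 of the summed level of the 10 genes and JUN 24.2% ± 1.20 (SD, n = 3). In OSCs JUN came first with 37.1% ± 0.599, FOSL1 second with 24.9% ± 0.488, and JUNB and JUND, whose libraries overlapped, held 13.9% ± 0.160 and 13.5% ± 0.558 (SD, n = 3). FOSL2, FOS, ATF3 and FOSB followed at 33.3, 23.5, 12.6 and 8.70 CPM per kb. With the longest transcript as length, the mean shares of FOS and FOSL2 were equal in OSCs, at 4.1% each. With shCtrl FOS was then above FOSL2 (4.34% against 3.23%). With shPDK1#1 their libraries overlapped (3.92% to 4.26% against 3.73% to 4.08%). In non-OSCs the shares of BATF3 and FOS overlapped with that length (0.437% to 0.61% against 0.431% to 0.499%).

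The balance between the subfamilies turned over. The 4 FOS genes together had 2.28 ± 0.164 times the per-length level of the 3 JUN genes in non-OSCs and 0.516 ± 0.0155 times in OSCs (SD, n = 3), with libraries between 2.09 and 2.39 and between 0.498 and 0.528. The summed level of all 10 genes was 567.3 ± 29.1 CPM per kb in non-OSCs and 782.7 ± 35.0 in OSCs. With the longest annotated transcript as length the ratio was 2.32 and 0.558. ATF3 itself, for all its rise, made up 0.107% ± 0.00754 of the sum in non-OSCs and 1.61% ± 0.0714 in OSCs, and the per-length level of JUN in OSCs was 23.2 ± 1.37 times that of ATF3, or 13.6 ± 0.800 times with the longest transcript.

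**Figure D3:**
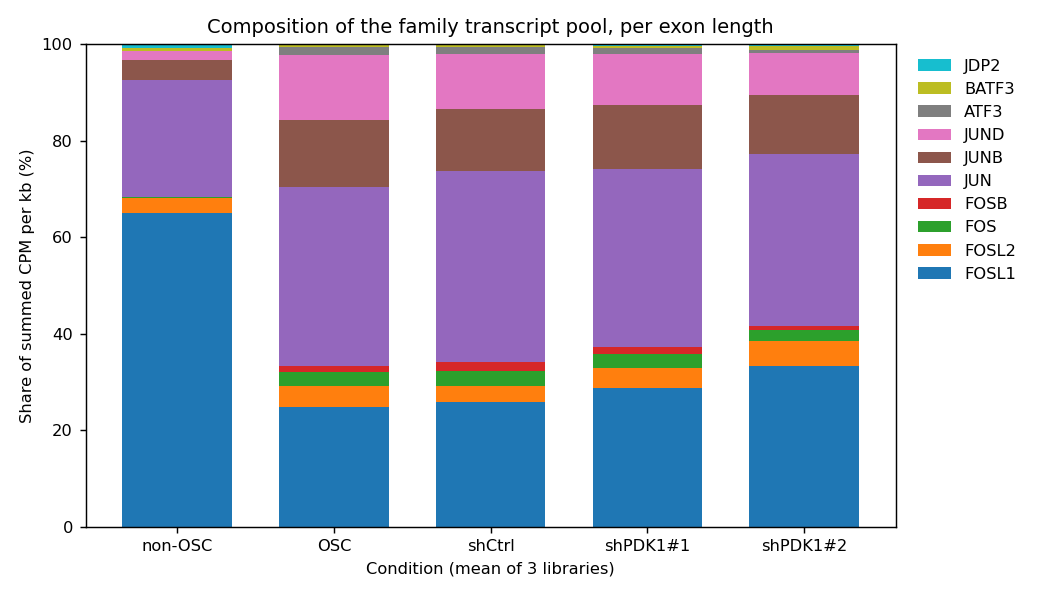
Share of each gene in the summed CPM per kb of exon of the 10 genes (bars stacked to 100%), as the mean of 3 libraries in each of the 5 conditions. FOSL1 holds 64.9% in non-OSCs and 24.9% in OSCs, and 25.8%, 28.8% and 33.3% with shCtrl, shPDK1#1 and shPDK1#2.

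With shPDK1#2, most of the family fell. Compared with shCtrl, 7 of the 10 genes were lower at an adjusted p under 0.05 and the other 3 did not pass (a single fit of the 9 hairpin libraries with edgeR), where 26.2% of all 14574 genes tested were called, 14.2% as lower and 12.0% as higher. Without ATF3 and FOSB, 5 of 8 genes fell. The median log2 fold change was -0.88 for the 10 genes and -0.61 for those 8, against 0.0080 over all genes tested. The libraries did not overlap for 7 of the 10 genes and for 5 of the 8, against 39.5% of all genes. The comparisons of the hairpins share their shCtrl libraries and are not independent of each other.

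FOS fell most among the members that neither selection had picked. It had 51.2, 56.8 and 53.9 CPM with shCtrl and 21.0, 23.0 and 21.8 CPM with shPDK1#2, which is 40.6% of the control mean (log2 FC -1.30, SE 0.0806, adjusted p = 3.22e-12). FOSB went from 49.5, 46.9 and 51.7 CPM to 15.2, 17.9 and 18.2 CPM, 34.7% of the control mean (log2 FC -1.53, SE 0.0961). FOSL1 fell less, from 258.0 ± 2.68 CPM to 197.5 ± 8.11 CPM (SD, n = 3 each; log2 FC -0.38, SE 0.0479, adjusted p = 7.35e-07).

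JUND dropped to 45.8% of the control mean, from 115, 114 and 117 CPM to 55.4, 54.9 and 48.3 CPM (log2 FC -1.12, SE 0.0658, adjusted p = 1.05e-12). JUN went from 768, 753 and 767 CPM to 387, 432 and 397 CPM, 53.2% of control (log2 FC -0.91, SE 0.0432, adjusted p = 1.92e-14). JUNB, from 125, 118 and 131 CPM to 68.1, 74.3 and 65.9 CPM, was at 55.7% (log2 FC -0.84, SE 0.063, adjusted p = 1.18e-10). In each of these genes every shPDK1#2 library was below every shCtrl library.

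FOSL2, JDP2 and BATF3 did not pass the test with shPDK1#2. FOSL2 had 128.2 ± 6.86 CPM with shCtrl and 117.4 ± 12.1 CPM with shPDK1#2 (SD, n = 3 each), and the unadjusted interval of its log2 fold change ran from -0.25 to -0.01 (adjusted p = 0.138). Without shPDK1#2 replicate 3, its highest library at 130 CPM, the log2 fold change was -0.21 with an adjusted p of 0.0182. JDP2 (58 to 94 counts per library in these groups) had an interval from -0.48 to 0.28, and BATF3 (52 to 71 counts) one from -0.37 to 0.37, with adjusted p-values of 0.757 and 0.99.

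With shPDK1#1, which left more PDK1, the changes were smaller. Here 5 of the 10 genes were lower and 5 did not pass, where 3.06% of all genes tested were called, 1.44% as lower and 1.62% as higher, and 3 of the 8 genes other than ATF3 and FOSB fell. JUN had 587, 653 and 598 CPM, or 80.3% of the control mean (log2 FC -0.32, SE 0.0425, adjusted p = 3.82e-05). JUND had 89.1, 102 and 89.1 CPM (log2 FC -0.30, SE 0.0622, adjusted p = 0.00459) and FOS 43.4, 44.5 and 41.5 CPM (log2 FC -0.33, SE 0.0743, adjusted p = 0.0113). FOSB was at 33.1, 40.6 and 34.8 CPM (log2 FC -0.44, SE 0.0874). The libraries of these 4 genes were apart from those of shCtrl, as were those of 19.3% of all genes.

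Some of these calls rested on single libraries. Without shPDK1#1 replicate 3, FOS (adjusted p = 0.0807) and JUND (adjusted p = 0.0546) were no longer called and 3 of the 10 genes remained, and without shCtrl replicate 2 FOS was not called (adjusted p = 0.0958). JUNB, with 108, 120 and 105 CPM, missed the threshold (log2 FC -0.17, SE 0.0604, adjusted p = 0.162) and passed it without shPDK1#1 replicate 2 (adjusted p = 0.0327). The 95% intervals of FOSL1 and FOSL2 ran from -0.14 to 0.05 and from -0.08 to 0.16 on the log2 scale. Those of JDP2 (54 to 119 counts per library) and BATF3 (35 to 79 counts) were wider, from -0.22 to 0.54 and from -0.53 to 0.23.

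Set against each other, the hairpins differed for most of the family. In shPDK1#2 against shPDK1#1, 7 of the 10 genes were lower and 3 did not pass, where 16.3% of all genes tested were called, 9.78% as lower and 6.50% as higher. Without ATF3 and FOSB, which had been picked on these libraries, 5 of 8 genes were lower. Libraries were apart for 7 of the 10 genes, for 5 of those 8 and for 30.7% of all genes. The log2 difference was -0.98 for FOS (SE 0.0822, adjusted p = 2.44e-09), -0.82 for JUND (SE 0.0668, adjusted p = 1.35e-09), -0.68 for JUNB (SE 0.0633, adjusted p = 1.5e-08) and -0.60 for JUN (SE 0.0433, adjusted p = 1.66e-10). FOSL1 differed by -0.34 (SE 0.0478, adjusted p = 9.86e-06). FOSL2 did not pass (log2 difference -0.16, adjusted p = 0.0693), although it did without shPDK1#2 replicate 3 and without a filter on low counts. PDK1 itself was lower with shPDK1#2 than with shPDK1#1 (log2 difference -0.50, SE 0.0908, adjusted p = 0.00024), and the amount of knockdown and the identity of the hairpin cannot be told apart.

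The composition of the family moved with the hairpins as well. The summed per-length level was 530.6 ± 8.09 CPM per kb with shCtrl, 458.1 ± 26.2 with shPDK1#1 and 314.3 ± 13.9 with shPDK1#2 (SD, n = 3 each). JUN remained first and FOSL1 second, but with shPDK1#2 the libraries of these 2 genes overlapped, at 111.9 and 104.7 CPM per kb. The ratio of the FOS to the JUN subfamily was 0.533 ± 0.00601 with shCtrl, 0.614 ± 0.0243 with shPDK1#1 and 0.740 ± 0.0175 with shPDK1#2, with no overlap between the groups. Further down, the libraries of FOSL2 and FOS overlapped with shCtrl, and those of FOSB and ATF3 with shPDK1#1. The order of BATF3 and ATF3 with shPDK1#2 depended on the length used. The ratio of BATF3 to ATF3 lay between 1.09 and 1.39 with the union of exons and between 0.627 and 0.798 with the longest transcript. The epithelial markers, led by KRT18, also moved with the hairpins. They summed to 329.8 to 354.3 CPM with shCtrl, 379.4 to 397.4 CPM with shPDK1#1 and 436.3 to 475.3 CPM with shPDK1#2. Of the 7 tested mesenchymal markers, 3 were higher and 0 lower with shPDK1#2, against 12.0% and 14.2% of all genes. With shPDK1#1, 1 was higher and 0 lower, against 1.62% and 1.44%. The part of these markers in the family's changes was not tested.

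Measured against ATF3 in the same library, which removes the scaling between libraries, FOSB and FOS stayed closest to it. The ratio of FOS to ATF3 per exon length was 3.19 ± 0.451 in non-OSCs and 1.87 ± 0.0277 in OSCs, and 2.14 ± 0.118, 2.43 ± 0.361 and 3.21 ± 0.488 with shCtrl, shPDK1#1 and shPDK1#2 (SD, n = 3 each). That of FOSB was 0.473 ± 0.172 and 0.693 ± 0.0774 in the first table, with overlapping libraries, and 1.12 ± 0.0474, 1.18 ± 0.268 and 1.44 ± 0.260 in the second. By contrast, FOSL1 had 611 ± 50.7 times the per-length level of ATF3 in non-OSCs and 15.5 ± 0.767 times in OSCs. JDP2 went from 7.82 ± 0.396 to 0.148 ± 0.0277 times the level of ATF3. With shPDK1#2 the same ratio was 0.561 ± 0.198, against 0.160 ± 0.0241 with shCtrl. All these ratios are lower with the longest transcript as length, because that of ATF3 is much shorter than the union of its exons. They were then 356 and 9.07 for FOSL1 and 4.77 and 0.0904 for JDP2 in non-OSCs and OSCs. FOSB, above ATF3 in every shCtrl library with the union of exons, was below it in each with the longest transcript (0.829 to 0.902). The order of FOSB and ATF3 in the hairpin libraries thus cannot be read from these ratios. In non-OSCs and OSCs FOSB was below ATF3 in every library with either length (at most 0.738 with the union and 0.571 with the longest transcript).

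A likeness to ATF3 was also computed for every gene, as the root mean square difference from ATF3 in log2 CPM over all 15 libraries after centring within each table. Of 14046 genes, the 5 nearest were CCN3 (0.15), NFATC2 (0.21), FOSB (0.31), FOS (0.31) and DUSP8 (0.32 on the log2 scale). NFATC2 encodes a calcium-responsive factor that can bind with AP-1, and DUSP8 a phosphatase of JNK and p38. JUND was in place 14, JUNB in place 111, JUN in place 623 and FOSL2 in place 1459. BATF3, FOSL1 and JDP2 lay in the lower part of the list, at places 9545, 12238 and 13571. The study's overlap had picked CCN3 and DUSP8 along with ATF3 from these libraries. Since ATF3 was chosen for its pattern, these distances describe the libraries and carry no test.

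Other bZIP genes, some of which can pair with the family, were described from a list of 29. The counts of this and the next lists stand beside 32.4% of all genes called higher and 31.5% lower in OSCs, 12.0% and 14.2% with shPDK1#2, and 1.62% and 1.44% with shPDK1#1. In OSCs, 17 of the 26 tested were higher and 3 lower, led by MAF (4.95 ± 0.556 to 93.2 ± 5.32 CPM), CREB5 (11.4 ± 0.279 to 99.5 ± 3.74 CPM), DDIT3 (4.95 ± 0.749 to 17.0 ± 1.98 CPM) and BACH1 (40.9 ± 2.60 to 122.7 ± 5.17 CPM; SD, n = 3 each). The median log2 fold change of the list was 0.61. With shPDK1#2, 13 of 27 were lower and 2 higher. CREB5, which like ATF2 pairs with JUN at CRE sites, fell from 52.4 ± 1.80 to 17.0 ± 0.559 CPM (log2 FC -1.62, SE 0.0852, adjusted p = 1.13e-13), and BACH1 fell by 0.70 on the log2 scale. With shPDK1#1, CREB5 fell (log2 fold change -0.45, adjusted p = 0.000716) and CEBPD rose (0.55, adjusted p = 0.00313), and the other 25 genes were not called.

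Kinases and serum response factors known to act on FOS and JUN were described from a list of 27. In OSCs 9 were higher and 4 lower, a smaller share than the 63.9% of all genes called, with a median log2 FC of 0.16. The largest changes were in MAPK11 (1.39), RPS6KA3 (1.14), MAP2K3 (-0.85) and MAPK7 (0.69 on the log2 scale). With shPDK1#2, 7 fell and 2 rose, the latter being MAP3K1 (0.73) and MAP3K5 (0.53), kinases upstream of JNK, and MAPK11, at 4.39 ± 0.204 against 6.80 ± 1.94 CPM, fell by 0.62 (adjusted p = 0.0369). With shPDK1#1 edgeR and DESeq2 each called 0 of the 27, of which 3 were lower and 0 higher at an unadjusted p under 0.05. These are transcript levels, and phosphorylation was not measured in these libraries.

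Genes known as AP-1 targets were described from a list of 26. In OSCs, 20 of 25 tested were higher (32.4% of all genes) and 4 lower (31.5%), with a median log2 fold change of 1.40. Matrix metalloproteinase MMP10 rose from 0.605 ± 0.478 to 222.9 ± 18.5 CPM, HMOX1, which encodes a heme oxygenase, from 12.2 ± 0.862 to 337.6 ± 15.8 CPM, the cytokine gene IL6 from 0.678 ± 0.529 to 18.7 ± 0.855 CPM and PTGS2, the inducible cyclooxygenase, from 25.6 ± 1.36 to 460.0 ± 23.9 CPM (SD, n = 3 each). With shPDK1#2, 16 of 25 fell (14.2% of all genes) and 3 rose (12.0%), and the largest falls were in MMP10 (log2 fold change -1.46, adjusted p = 9.05e-15), IL11 (-1.46, adjusted p = 1.6e-14) and CXCL8 (-1.19, adjusted p = 2.92e-06). With shPDK1#1 the direction was mixed, with 6 higher (1.62% of all genes) and 2 lower (1.44%). The collagenase genes MMP1 and MMP13 rose by 0.59 and 0.54 on the log2 scale, and MMP9 fell by 0.60.

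Early response and handling genes, a list of 26 that includes heat shock genes, were read because FOS, JUN and ATF3 respond to the handling of cells. In OSCs 21 were higher and 2 lower, where 63.9% of all genes were called, led by NR4A2 (log2 fold change 3.95), ZFP36 (3.08), NR4A3 (2.81) and EGR2 (2.68). The median log2 fold change of the list in OSCs was 1.28, against -0.005 over all genes tested. With shPDK1#2, 9 were lower and 1 higher, where 26.2% of all genes were called, led by KLF2 (-1.64), PPP1R15A (-0.91) and DUSP1 (-0.87), and the median of the list was -0.06. With shPDK1#1, 5 were lower, including KLF2 (-0.46) and EGR1 (-0.33), and 3 higher, including HSPA1B (0.36), which has a near-identical copy in HSPA1A. The summed level of the list was between 4919 and 5020 CPM in non-OSCs, between 5441 and 5578 CPM in OSCs, 5203 to 5293 CPM with shCtrl, 5289 to 5401 CPM with shPDK1#1 and 5242 to 5295 CPM with shPDK1#2. The part of handling in the levels of the FOS, JUN and ATF3 genes was not tested.

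**Figure D4:**
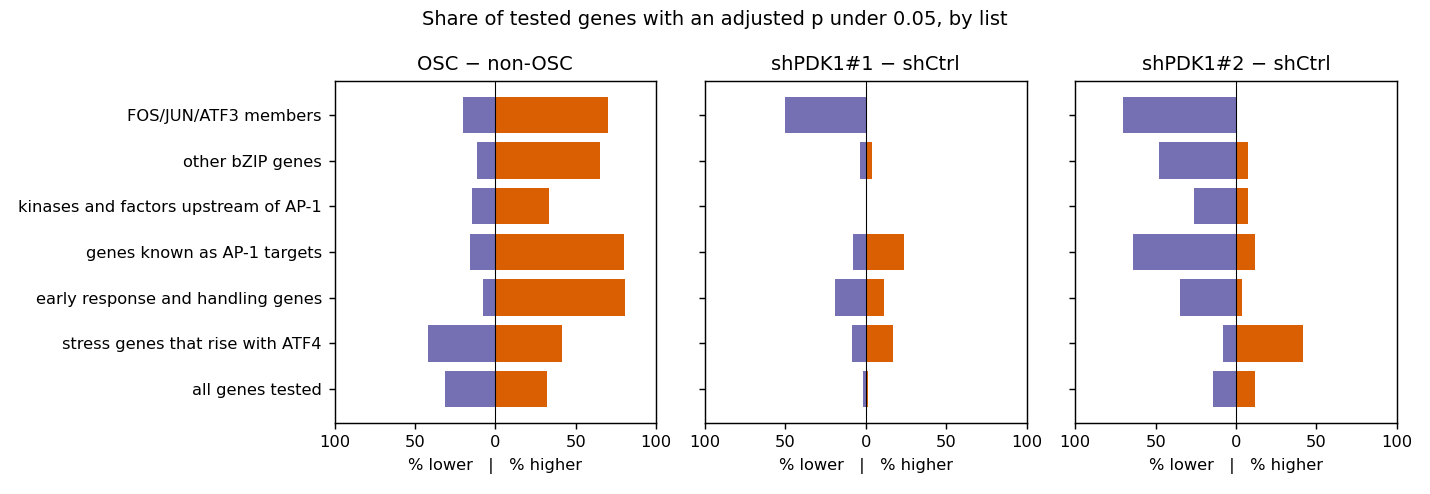
Share of tested genes with an adjusted p under 0.05, lower (left of 0) or higher (right of 0), for the 10 family members, the 5 companion lists and all genes tested. With shPDK1#2, 7 of 10 members (5 of 8 without ATF3 and FOSB) and 16 of 25 AP-1 targets are lower, against 14.2% of all genes.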

How the data were processed

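RNA from 15 libraries of the 143B cell line (3 for each of 5 conditions, grouped by GEO title) was analysed. The authors used Trimmomatic 0.39 and FastQC 0.12.1 on paired-end reads, then STAR 2.7.11a (genome GRCh38.p14) and RSEM 1.3.3, and deposited the expected counts per gene. These divide ambiguous reads between genes and are not normalized between libraries. The annotation is not given in the sources used here, but all gene identifiers occur in GENCODE 44. The columns named S2D and S3D were read as adherent and sphere cultures, and 0 columns were unmapped. Expected counts were rounded (6.85% and 6.92% were not whole). The tables were fitted separately in R 4.3.3 with edgeR 4.0.16 (TMM, filterByExpr, quasi-likelihood test), with Benjamini-Hochberg adjustment over all genes tested and a threshold of 0.05. Figures were drawn with Python 3.11.15 and matplotlib 3.10.9. Standard errors were computed back from the quasi-likelihood test, as the absolute log2 fold change over the square root of its F statistic. Intervals are 95% normal intervals from these standard errors and are somewhat narrower than the test itself implies. Per-length levels divide CPM by the union of annotated exons, which only approximates the isoforms present. The fits were tested on simulated data. Chi-square values between replicates were 1.95 to 3.67 times their degrees of freedom, so each library was counted as 1 sample. The members and lists were chosen with earlier results of these data known. All members are named, plus the leading called genes of each list (up to 4 in OSCs and up to 3 per hairpin) and the 5 nearest to ATF3. One result that this rule would name is not reported here.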

Additional observations from a re-analysis of the deposited data

Results flagged for a closer look

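The effects of the 2 hairpins differed in a direct contrast, shPDK1#2 against shPDK1#1 in the joint fit, for 7 of the 10 genes. The same contrast called 5 of the 8 genes without ATF3 and FOSB, and 16.3% of all genes tested. The log2 difference was -1.38 for ATF3, -1.09 for FOSB, -0.98 for FOS, -0.82 for JUND, -0.68 for JUNB, -0.60 for JUN and -0.34 for FOSL1. All 3 shPDK1#2 libraries were below all 3 shPDK1#1 libraries for each of these genes, and libraries were apart for 30.7% of all genes. ATF3 and FOSB had been picked on the same libraries, so their values are a description.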

How the results depend on the processing

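The alternatives were DESeq2 1.42.0, scaling by library size alone, fits with no filter or with a minimum of 10 counts per library, the replicate block, fits to the compared groups alone, and omission of each library in turn. Of 470 refits of the members' log2 fold changes, 452 kept their direction and their side of the threshold, 3 lost and 4 gained a call, and 11 changed sign with values near 0. For OSCs, 9 members were called in every alternative. With shPDK1#1, leaving out a library gave 3 to 6 members called and 245 to 508 genes called, against 5 and 446. Both lows came without shPDK1#1 replicate 3, and without shCtrl replicate 1 or 2 the gene count was 270 and 282. With shPDK1#2 it gave 7 to 8 members.

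The sign changes were in members that had not been called, and all but 1 came from leaving out a library. With shPDK1#1 the log2 fold change then ranged from -0.0106 (without shPDK1#1 replicate 3) to 0.3067 for JDP2, from -0.2999 to 0.0151 (without shPDK1#1 replicate 1) for BATF3, from -0.0842 to 0.0048 (without shPDK1#1 replicate 1) for FOSL1 and from -0.0080 (without shCtrl replicate 2) to 0.0638 for FOSL2. With shPDK1#2 it ranged from -0.3151 to 0.0280 for JDP2 (above 0 without shCtrl replicate 1 or shPDK1#2 replicate 3) and from -0.0163 to 0.0350 for BATF3 (below 0 without shCtrl replicate 1 or 3 or shPDK1#2 replicate 2). BATF3 was also at -0.0084 with library size alone. Between the hairpins BATF3 ranged from -0.0116 (without shPDK1#1 replicate 1) to 0.3053.

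The deviations of same-numbered libraries from their group means had correlations between -0.054 and 0.095, and those of different-numbered libraries between -0.076 and 0.046. With 3 libraries per condition these values cannot show whether the numbers pair the libraries. With the replicate block the members called were 9 in OSCs, 5 with shPDK1#1 and 7 with shPDK1#2, and the genes called were 9420, 507 and 3943. Per-length shares depend on the length used. With the longest transcript ATF3 made up 0.184% in non-OSCs and 2.76% in OSCs, and FOSL1 65.2% and 24.9%. With the smaller prior count, the 5 genes nearest to ATF3 were the same.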

Other observations

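Stress genes that rise with the factor ATF4, a known inducer of ATF3, were described from a list of 13. In OSCs 5 of 12 tested were higher and 5 lower, an even split as over all genes (32.4% higher and 31.5% lower). PSAT1, PHGDH and ASNS, enzymes of serine and asparagine synthesis, fell by 1.98, 1.60 and 1.65 on the log2 scale, and GDF15, a stress-induced cytokine, rose by 1.82. With shPDK1#2, 5 were higher and 1 lower, against 12.0% and 14.2% of all genes. DDIT4, an inhibitor of mTORC1 signaling, rose from 116.1 ± 1.52 to 276.9 ± 9.91 CPM (log2 fold change 1.25, adjusted p = 9.62e-17 from edgeR), ASNS rose by 0.45 and GDF15 fell by 1.46. With shPDK1#1, DDIT4 rose by 1.21 and ASNS by 0.47, and SLC7A11, a cystine transporter, fell by 0.27.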
